A study of Homo sapiens with 2 samples.

Results

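The mRNAs of 10 host restriction factors, proteins that block the replication of viruses and mobile elements inside the cell, were measured in HEK293T cells. The genes were chosen by name. They comprised 6 APOBEC3 genes (APOBEC3B, APOBEC3C, APOBEC3D, APOBEC3F, APOBEC3G and APOBEC3H) and 4 other genes (SAMHD1, BST2, TRIM5 and IFITM3), and each was found by its gene identifier among 57736 genes. Poly(A)+ RNA was sequenced from untreated, wild type HEK293T cells in 2 replicates that form 1 group. HEK293T is an established human cell line made from embryonic kidney, and it expresses the large T antigen of SV40. No condition could be compared with another, so levels were compared between genes and between the replicates. The labels do not say whether the replicates were separate cultures, so their spread may be technical.

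The replicates held 10593491 and 10104118 estimated counts. A count of 0 allows a true value of up to 3 counts, or 0.283 and 0.297 CPM (counts scaled to a common library total), and this limit covers counting error only. The label was checked against markers. The intermediate filament gene VIM had a TPM of 344 and 332 in replicates 1 and 2, and KRT18 had 47.2 and 45.2, while KRT19 was listed at 0. The pan-leukocyte marker PTPRC had 0.220 and 0.110 TPM. The 12 leukocyte markers summed to 7.67 and 7.73 TPM, with CD3D, CD3E, MS4A1 and ITGAM listed at 0. TPM is the share of a gene among all transcripts, corrected for length and brought to a common total in both libraries. In bulk RNA, few cells with much of a transcript and many cells with little of it cannot be told apart.

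APOBEC3 proteins are cytidine deaminases that turn cytosine into uracil in single-stranded DNA, including the reverse-transcribed DNA of retroviruses, and the HIV-1 protein Vif counters several of them by recruiting a CUL5 ubiquitin ligase together with CBFB. SAMHD1 hydrolyses deoxynucleotides and so starves reverse transcription. TRIM5 binds incoming retroviral capsids, IFITM3 hinders the fusion of viruses that enter through endosomes, and BST2 (tetherin) holds budding virions at the cell surface. Many of these genes are induced by interferon, through response elements in their promoters.

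Each APOBEC3 protein has 1 or 2 zinc-binding domains. The coding stretch of this motif is shown because nearly identical stretches make reads of these genes hard to assign. The motif was found 2 times in APOBEC3B, APOBEC3D, APOBEC3F and APOBEC3G and 1 time in APOBEC3C and APOBEC3H. The stretches below are on the plus strand of chromosome 22 (GRCh37), 105 bases long, and capitals mark the bases that differ from APOBEC3C.
APOBEC3C (chr22:39413792-39413896, exon 3): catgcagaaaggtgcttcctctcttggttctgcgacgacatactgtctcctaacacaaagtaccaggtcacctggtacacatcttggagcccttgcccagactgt
APOBEC3D, second motif (chr22:39427720-39427824, exon 6): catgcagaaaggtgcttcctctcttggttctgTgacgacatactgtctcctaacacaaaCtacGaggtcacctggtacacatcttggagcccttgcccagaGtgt
APOBEC3F, second motif (chr22:39448100-39448204, exon 6): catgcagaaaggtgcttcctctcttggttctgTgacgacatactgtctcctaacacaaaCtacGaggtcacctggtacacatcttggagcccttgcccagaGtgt
APOBEC3B, first motif (chr22:39381838-39381942, exon 3): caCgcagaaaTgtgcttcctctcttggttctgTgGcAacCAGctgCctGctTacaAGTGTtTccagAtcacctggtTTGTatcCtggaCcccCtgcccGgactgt
APOBEC3G, second motif (chr22:39482317-39482421, exon 6): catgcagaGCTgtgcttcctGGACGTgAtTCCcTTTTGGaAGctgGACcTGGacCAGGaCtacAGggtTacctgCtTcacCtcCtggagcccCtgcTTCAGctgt
APOBEC3H (chr22:39497251-39497355, exon 3): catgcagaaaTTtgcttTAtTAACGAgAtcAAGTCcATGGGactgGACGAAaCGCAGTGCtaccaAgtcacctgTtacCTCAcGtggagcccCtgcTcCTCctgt

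The second motifs of APOBEC3D and APOBEC3F were the same in all 105 bases, and both differed from APOBEC3C at 4 bases (96.2% identity). The first motif of APOBEC3B was identical to the first motif of APOBEC3F (chr22:39440967-39441071), with 26 differences from APOBEC3C. The first motif of APOBEC3D (chr22:39421096-39421200) differed from both of these at 13 bases. APOBEC3G and APOBEC3H were farther apart, with 45 and 47 differences from APOBEC3C (57.1% and 55.2% identity).

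The promoter sequences bear on the interferon response. RefSeq promoter sequences (GRCh38.p14) were at hand for 5 of the 10 genes: APOBEC3H, SAMHD1, BST2, TRIM5 and IFITM3. They were searched on both strands, over the 250 bases before the transcription start, for GAAANNGAAA, the core of the interferon-stimulated response element. Capitals mark the matches, and each sequence is written in the direction of its gene, which lies on the minus strand for all 4 genes shown.
BST2 (chr19:17405631-17405880): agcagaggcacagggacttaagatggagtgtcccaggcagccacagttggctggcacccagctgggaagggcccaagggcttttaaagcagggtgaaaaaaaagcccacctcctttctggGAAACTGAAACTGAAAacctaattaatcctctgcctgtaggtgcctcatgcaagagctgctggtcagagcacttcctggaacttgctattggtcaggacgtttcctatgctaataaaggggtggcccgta
TRIM5 (chr11:5685075-5685324): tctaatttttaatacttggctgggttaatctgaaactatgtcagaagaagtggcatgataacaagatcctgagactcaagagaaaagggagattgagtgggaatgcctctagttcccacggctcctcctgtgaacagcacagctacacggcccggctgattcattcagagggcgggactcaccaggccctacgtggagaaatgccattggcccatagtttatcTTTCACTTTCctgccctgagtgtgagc
IFITM3 (chr11:320861-321110): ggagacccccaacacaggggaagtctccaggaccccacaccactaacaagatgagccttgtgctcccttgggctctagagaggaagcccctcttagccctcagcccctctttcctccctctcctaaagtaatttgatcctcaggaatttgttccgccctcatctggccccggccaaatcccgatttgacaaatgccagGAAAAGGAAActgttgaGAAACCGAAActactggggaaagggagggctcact
SAMHD1 (chr20:36951709-36951958): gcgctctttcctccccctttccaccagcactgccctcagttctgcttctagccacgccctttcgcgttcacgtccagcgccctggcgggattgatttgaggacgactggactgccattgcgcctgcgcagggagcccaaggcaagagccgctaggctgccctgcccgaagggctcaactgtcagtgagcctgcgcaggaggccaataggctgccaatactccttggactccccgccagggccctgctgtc

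The letters were found in BST2 (2 overlapping matches, 114 to 130 bases before the start), in TRIM5 (1 match, 17 to 27 bases before it, on the opposite strand) and in IFITM3 (2 matches, 25 to 52 bases before it). SAMHD1 and APOBEC3H held no match in this window. The motif was present in 1014 of 27305 genes with a promoter sequence (3.71%), and in 555 of 15318 protein-coding genes (3.62%). In the SAMHD1 promoter 64.0% of the bases were G or C, with 14 CpG pairs, against 52.0% and 2 CpG pairs in BST2 and 55.2% and 1 CpG pair in APOBEC3H. The median over all promoters was 58.0% with 11 CpG pairs. A match of these letters is a description of the sequence and not a bound site.

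The level of each restriction factor was then examined. Genes at 1 TPM or more in each of the replicates are called detected here, and this level was reached by 7 of the 10 genes, among them 4 of the 6 APOBEC3 genes. The 3 genes below it were APOBEC3G, APOBEC3H and BST2. The same threshold was passed by 27.7% of all genes and by 63.7% of protein-coding genes, so the share of restriction factors detected lay near that of protein-coding genes. The median of their mean TPM was 3.38, against 6.50 for all protein-coding genes and 21.2 for the detected ones. APOBEC3C and SAMHD1 exceeded 30 TPM in both replicates, and the 5 other detected genes lay between 2 and 11 TPM.

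**Figure D1:**
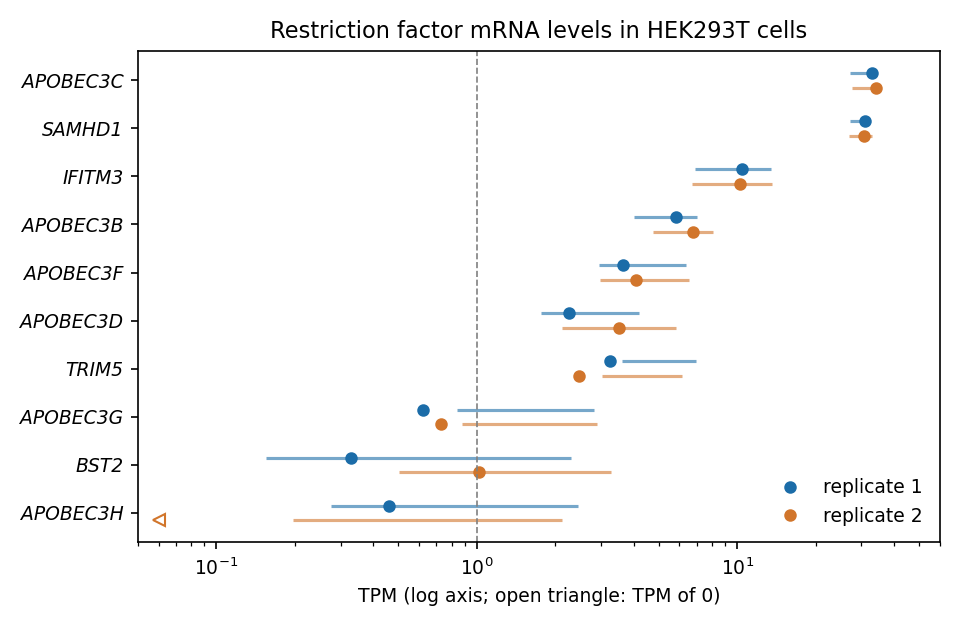
TPM (log axis) of the 10 restriction factor mRNAs in replicate 1 (blue) and replicate 2 (orange). Points are the deposited TPM, lines the 95% interval that RSEM gives, an open triangle a TPM of 0, and the dashed line a TPM of 1. APOBEC3C and SAMHD1 stand above 30 TPM in both replicates, and points of APOBEC3G and TRIM5 lie to the left of their own intervals.

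APOBEC3C, a deaminase with a single zinc-binding domain, had the highest level. Its TPM was 33.1 in replicate 1 and 34.1 in replicate 2 (33.6 ± 0.658, SD, n = 2), from 587 and 544 estimated counts. The gene (ENSG00000244509) lies on chromosome 22 from 39410262 to 39416357 on the plus strand. It ranked above 77.2% of protein-coding genes and above 64.1% of the detected ones.

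APOBEC3B, a mainly nuclear deaminase whose activity leaves mutations in many tumour genomes, came next in the family. Its TPM was 5.81 and 6.74 (6.28 ± 0.658, SD, n = 2), from 58.7 and 65.0 counts. APOBEC3C exceeded APOBEC3B by 5.70 times in replicate 1 and by 5.05 times in replicate 2. APOBEC3B (ENSG00000179750, chromosome 22, 39378352 to 39388809) ranked above 49.6% of protein-coding genes, and above 20.9% of the detected ones.

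APOBEC3F and APOBEC3D, double-domain deaminases that restrict HIV-1 lacking Vif, were lower. APOBEC3F (ENSG00000128394, 39436609 to 39451977) had 3.65 and 4.08 TPM (3.87 ± 0.304, SD, n = 2), from 64.7 and 54.8 counts. APOBEC3D (ENSG00000243811, 39417118 to 39429282) had 2.26 and 3.52 TPM (2.89 ± 0.891, SD, n = 2), from 41.7 and 42.9 counts. APOBEC3D was lower than APOBEC3F in both replicates, by 1.62 and 1.16 times. Because these genes carry the identical stretch shown above, their summed TPM depends less on how reads were divided between the 2 genes. It still depends on reads shared with other genes and on the length correction. The sum was 5.91 in replicate 1 and 7.60 in replicate 2.

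APOBEC3G, the deaminase best known for hypermutating HIV-1 that lacks Vif, was not detected by the TPM threshold. Its TPM was 0.620 and 0.730 (0.675 ± 0.0778, SD, n = 2), from 10.2 and 9.86 counts. The summed count of 20 has an exact 95% Poisson interval of 12.2 to 30.9, which covers counting error only. By the separate counts, reads assigned to APOBEC3G were present in both libraries, at a level that APOBEC3C exceeded by 53.5 and 46.7 times. The TPM of APOBEC3G lay below the lower bound of its own RSEM interval in both replicates (0.840 to 2.81, and 0.875 to 2.89). The scale of its level is therefore uncertain. APOBEC3G (ENSG00000239713) lies from 39473072 to 39483748.

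APOBEC3H, a deaminase whose haplotypes differ in protein stability, had 1 count in replicate 1 and 0 in replicate 2, or 0.460 and 0 TPM. The length given for the gene in replicate 1 was 338 bases, that of a transcript annotated as a retained intron and of no coding transcript. The exact 95% Poisson interval of the summed count was 0.0253 to 5.57, which does not separate this gene (ENSG00000100298, 39493229 to 39500072) from one with no reads at this depth.

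Together the 6 APOBEC3 genes reached a summed TPM of 45.9 in replicate 1 and 49.1 in replicate 2 (47.5 ± 2.26, SD, n = 2), from 763 and 717 counts. APOBEC3C held 72.1% and 69.3% of this sum (70.7% ± 1.98, SD, n = 2). APOBEC3B held 12.6% and 13.7%, APOBEC3F 7.95% and 8.30%, and APOBEC3D 4.92% and 7.16%. APOBEC3G made up 1.35% and 1.49%, and APOBEC3H 1.00% and 0. The order of the shares was the same in both replicates.

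The APOBEC3 genes form a tandem cluster, and the levels were set along it. The 7 genes span 151 kb of chromosome 22, from 39348746 to 39500072, all on the plus strand. APOBEC3A, at the start of the cluster, had 0 counts in both replicates, and the gene next to it was APOBEC3B. APOBEC3C and APOBEC3D start 61.5 and 68.4 kb from the start of APOBEC3A, and 33.6 and 2.89 TPM (means) were thus measured at adjacent genes. The antisense transcript APOBEC3B-AS1 had 0 and 1.14 counts. Outside the cluster, the Polycomb gene CBX6, which starts at -91.3 kb on the same scale, had 117 and 111 TPM, and CBX7, after it, had 5.27 and 4.77 TPM.

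**Figure D2:**
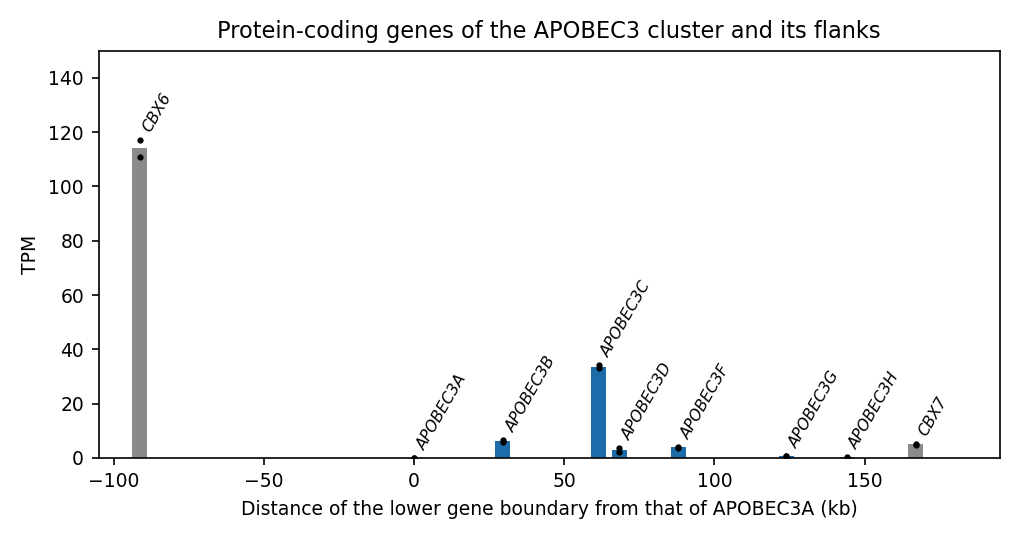
TPM (linear axis) of the 7 APOBEC3 genes (blue) and of the protein-coding flanking genes CBX6 and CBX7 (grey), against distance in kb of the lower gene boundary from that of APOBEC3A. Bars are means of 2 replicates and dots the replicates. Within the cluster APOBEC3C stands alone at 33.6 TPM, the genes on both of its sides have under 7 TPM, and APOBEC3A is listed at 0.

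SAMHD1, the deoxynucleotide hydrolase, had the second highest level of the 10 genes and the most reads. Its TPM was 31.0 and 30.7 (30.9 ± 0.205, SD, n = 2), from 1063 and 990 counts. SAMHD1 lay below APOBEC3C in both replicates, at 0.936 and 0.902 of its TPM. The gene (ENSG00000101347) lies on chromosome 20 from 35518977 to 35580246 on the minus strand, and it ranked above 75.4% of protein-coding genes. The overlapping gene TLDC2 on the other strand had 17.0 and 13.8 counts.

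IFITM3, the inhibitor of endosomal virus entry, had 10.4 and 10.3 TPM (10.4 ± 0.0919, SD, n = 2), from 40.5 and 39.6 counts. SAMHD1 exceeded IFITM3 by 2.98 and 2.99 times. IFITM3 (ENSG00000142089) lies on chromosome 11 from 319676 to 327537 on the minus strand. It overlaps antisense lncRNAs, of which ENSG00000251661 had 11.6 and 5 counts, and reads within the overlap cannot be told apart if strand was not used. The relatives IFITM1 and IFITM2 had 8.51 and 9.05 TPM and 22.6 and 19.7 TPM, respectively, so IFITM3 held 25.1% and 26.4% of the sum of these 3 genes, which was 41.5 and 39.0 TPM.

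TRIM5, the capsid-binding factor, had 3.24 and 2.48 TPM (2.86 ± 0.537, SD, n = 2), from 59.9 and 45.5 counts. SAMHD1 exceeded TRIM5 by 9.57 and 12.4 times. TRIM5 (ENSG00000132256) lies on chromosome 11 from 5684425 to 5959849 on the minus strand, a span that overlaps 15 other genes, of which TRIM22 and ENSG00000239920 had any counts. The TPM of TRIM5 lay below its RSEM interval in both replicates (3.62 to 6.93, and 3.04 to 6.16), and a TPM outside its interval was found in 14.5% and 15.1% of detected protein-coding genes. TRIM22, which is also an antiviral ubiquitin ligase, had 0 and 4 counts.

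BST2, the virion tether, had 1 count in replicate 1 and 4 in replicate 2, or 0.330 and 1.02 TPM (0.675 ± 0.488, SD, n = 2). The exact 95% Poisson interval of its summed count of 5 was 1.62 to 11.7. It crossed 1 TPM only in replicate 2, on 4 counts. The length given for BST2 in replicate 1 was 459 bases, that of a transcript annotated as a retained intron. BST2 (ENSG00000130303) lies on chromosome 19 from 17513748 to 17516439 on the minus strand.

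Ordered by mean TPM, the 10 genes ran APOBEC3C, SAMHD1, IFITM3, APOBEC3B, APOBEC3F, APOBEC3D, TRIM5, APOBEC3G, BST2 and APOBEC3H. In 6 of the 9 neighbouring pairs the lower replicate of the higher gene lay above the higher replicate of the lower gene. The 3 pairs that overlapped were APOBEC3D with TRIM5, APOBEC3G with BST2, and BST2 with APOBEC3H. The pairs are described and were not tested, and an exact permutation test of 2 values against 2 cannot give a two-sided p below 0.333. By the wider RSEM intervals, which also cover sampling of reads within a library, 2 of the 9 pairs stayed apart in both replicates: SAMHD1 from IFITM3, and TRIM5 from APOBEC3G.

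How far the libraries differed from each other was then asked of each gene. Estimated counts, rounded, were compared between the libraries by an exact two-sided binomial test with Benjamini-Hochberg adjustment over all 17920 genes with 10 or more counts in the replicates together. This test compares the libraries, not conditions, and covers counting error only, since it treats each estimated read as an independent molecule. Of all genes tested, 3.88% had an adjusted p under 0.05, and 13.3% an unadjusted p under 0.05. Of the 8 restriction factors with enough counts, 0 passed at either level, and APOBEC3H and BST2 were below the minimum count. The lowest adjusted p by the exact binomial test was 0.720, for TRIM5.

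The reads and the length correction contributed differently to the differences in TPM. For TRIM5 the log2 ratio of replicate 2 to replicate 1 was -0.39 in TPM and -0.33 in CPM, with an effective length ratio of 0.04. APOBEC3D had the reverse makeup, with a log2 TPM ratio of 0.64 but a ratio of 0.11 in CPM. Its transcript length, averaged over the transcripts to which reads were assigned, was 2528 bases in replicate 1 and 1746 bases in replicate 2. Its effective length, the one used for TPM, was 2480 and 1698 bases, a log2 ratio of -0.55. A change of over 0.5 in this length was found in 3.94% of detected protein-coding genes.

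APOBEC3F showed the same makeup, with a log2 ratio of 0.16 in TPM, -0.17 in CPM and -0.35 in effective length. APOBEC3G had ratios of 0.24, 0.01 and -0.25 on the same 3 scales. For APOBEC3C and SAMHD1 the log2 TPM ratios were 0.04 and -0.01. Over the detected restriction factors the median absolute log2 TPM ratio was 0.16, beside 0.14 for detected protein-coding genes.

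**Figure D3:**
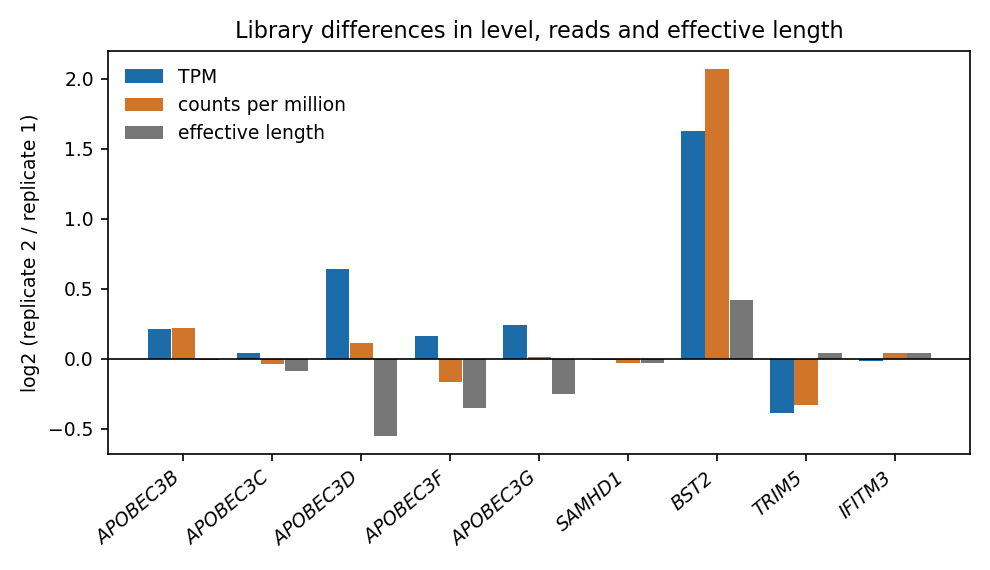
Log2 ratio of replicate 2 to replicate 1 for the 9 restriction factors with reads in both, in TPM (blue), CPM (orange) and effective length (grey). APOBEC3D has a TPM ratio of 0.64 beside a count ratio of 0.11 and a length ratio of -0.55, and the tall bars of BST2 rest on 1 and 4 counts.

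Reads of 50 bases can fit several of these genes, and this was measured from the transcripts. Each 50-base window of a gene's transcripts was searched in the transcripts of all other genes, on both strands. The share of windows found in another gene was 38.0% for IFITM3, 30.1% for APOBEC3B, 19.4% for APOBEC3D and 11.9% for APOBEC3F. It was 6.07% for APOBEC3G, 4.23% for TRIM5, 3.62% for SAMHD1, 1.36% for APOBEC3C and 0 for APOBEC3H and BST2. The median over protein-coding genes was 1.03%, and 21.9% of them shared more than 10% of their windows.

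The genes that shared these windows were relatives, overlapping genes and unrelated genes. APOBEC3B shared 14.1% of its windows with APOBEC3A, 7.76% with APOBEC3D, and 7.56% with its antisense transcript APOBEC3B-AS1. APOBEC3D shared 8.87% with APOBEC3F (224 windows), and APOBEC3F shared 4.96% with APOBEC3G (258 windows). IFITM3 shared 20.8% with the antisense lncRNA ENSG00000255328, which had 1 and 2 counts, and 13.2% with IFITM2. TRIM5 shared 3.34% with HBG2, and SAMHD1 shared 3.57% with the overlapping gene TLDC2. APOBEC3C, in spite of the 4-base difference of its zinc motif from those of APOBEC3D and APOBEC3F, shared 1.21% with APOBEC3F and 0.909% with APOBEC3D.

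The deposited tables carry a posterior SD of each count, which describes how uncertain the division of shared reads was. It is given here as a percentage of the posterior mean count of RSEM, not of the estimated counts printed above. In replicates 1 and 2 it was 10.9% and 10.8% for APOBEC3G, 6.51% and 8.12% for APOBEC3D, and 6.13% and 7.06% for IFITM3. APOBEC3F had 5.18% and 5.42%, and APOBEC3B 4.94% and 4.04%. For APOBEC3C it was 0.321% and 0.346%, and for SAMHD1 0.181% and 0.195%. Of the 7 detected genes, the 2 with the highest levels thus had the smallest posterior SD relative to their posterior mean count. This SD does not cover transcripts missing from the annotation. A transcript that the deposited table lists under APOBEC3D, ENST00000381568, starts at 39410368 inside APOBEC3C and is a separate read-through gene (ENSG00000284554) in GENCODE 44, so part of the APOBEC3D row can come from it.

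**Figure D4:**
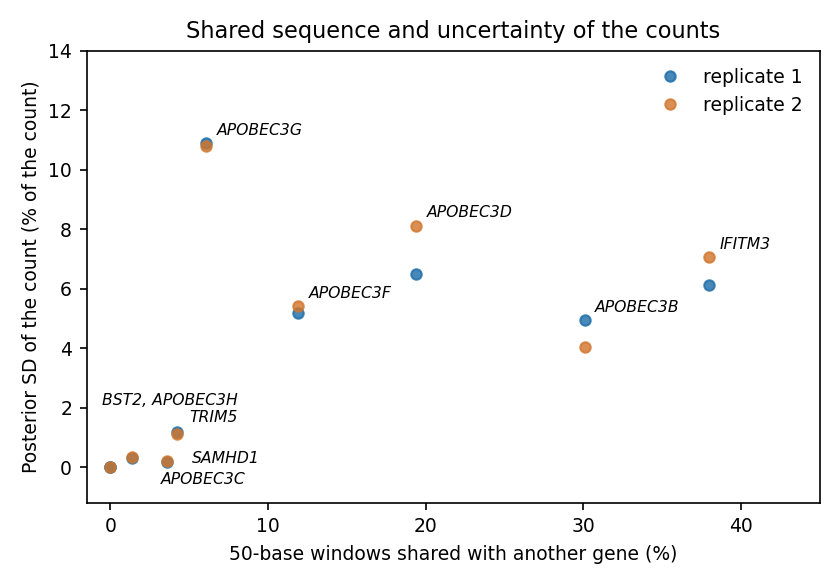
Posterior SD of the count against the share (%) of 50-base windows found in another gene, for the 10 restriction factors. Replicate 1 is blue and replicate 2 orange. The SD is a percentage of the posterior mean count. APOBEC3C and SAMHD1 lie near 0 on both axes, and APOBEC3G has the largest SD, 10.9% and 10.8%, with 6.07% of its windows shared.

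The genes that act with these factors were taken from lists by role. Each list is to be read beside all protein-coding genes, of which 63.7% were detected. The median over all protein-coding genes was 6.50 TPM. Of 5 other APOBEC family genes 0 were detected. APOBEC2, a muscle member, had 0.730 and 0.760 TPM, and APOBEC1 and APOBEC3A were listed at 0. The cell's subunits of the ligase that Vif recruits were detected for 6 of 6 genes, with mean levels from 40.3 to 220 TPM. CUL5, its scaffold, had 41.3 and 39.4 TPM, and CBFB, its stabilising partner, had 69.7 and 58.9. Genes that repair uracil in DNA, the product of APOBEC3 proteins, were also detected for 6 of 6, from 15.9 to 200 TPM, with the uracil glycosylase UNG at 87.4 and 96.7 TPM.

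Genes that work with or against SAMHD1 were detected for 10 of 10, with a median of 95.1 TPM. Among them were the ribonucleotide reductase subunits RRM1, at 210 and 208 TPM, and RRM2, at 168 and 188 TPM, which make the deoxynucleotides that SAMHD1 removes. CDK2, a kinase that phosphorylates SAMHD1, had 136 and 126 TPM. DDB1 and DCAF1, parts of the ligase through which the viral protein Vpx degrades SAMHD1, had 180 and 162 TPM and 58.9 and 60.4 TPM.

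For TRIM5, the list held its locus relatives and a cofactor, and 3 of 5 were detected. PPIA (cyclophilin A), which binds the HIV-1 capsid, had 1387 and 1309 TPM. TRIM6 had 3.97 and 4.65 TPM and TRIM21, a cytosolic antibody receptor, had 4.48 and 4.66 TPM, while TRIM34 and TRIM22 were not detected. Of 4 other IFITM genes, IFITM1 and IFITM2 were detected and IFITM5 and IFITM10 were not.

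Restriction factors that are made without a stimulus were compared with genes that interferon induces. Of 20 factors listed as constitutive, 19 were detected, with a median of 40.3 TPM. The share detected among all protein-coding genes was 63.7%, and the median over all of them was 6.50 TPM. TRIM28, a corepressor of endogenous retroviruses, was the highest at 648 and 576 TPM. ZC3HAV1 (ZAP), which binds CpG-rich viral RNA, had 41.3 and 40.2 TPM, and SERINC3, which lowers the infectivity of virions, had 55.0 and 52.0 TPM. SLFN11 was the exception, with 1 and 0 counts.

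Of 21 interferon-induced effectors, 8 were detected (38.1%) and 13 were not, with a median of 0.320 TPM. IFI44, MX2 and OAS1 had no counts in both replicates, and MX1, a dynamin-like antiviral GTPase, had 4 and 0 counts. The highest was IFIT5 at 13.5 and 14.4 TPM, followed by HERC5, the ligase for ISG15, at 10.9 and 14.4 TPM. ISG15 itself had 1.42 and 2.52 TPM. BST2, IFITM3 and TRIM5, which carry the promoter motif shown above, had mean levels of 0.675, 10.4 and 2.86 TPM. The motif was present in 13 of the 15 effectors with a promoter sequence and in 0 of 17 constitutive factors, beside 3.62% of protein-coding genes. The effectors were listed as interferon-induced, so their share is partly set by that choice. A link of motif and level was not tested.

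The interferon signalling genes were detected for 15 of 18, at mean levels of up to 73.7 TPM. The receptor subunit IFNAR1 had 30.5 and 35.9 TPM and the receptor kinase JAK1 had 43.1 and 41.8 TPM. The interferon genes IFNB1 and IFNG were listed at 0 in both replicates. Of the genes of these lists, 2 differed between the libraries in counts beyond counting error. They were 1 of 6 tested in the Vif ligase list and 1 of 15 tested in the interferon signalling list. Each other list had 0 called, of 1 to 19 tested. Over all genes tested 3.88% were called. JAK2, a receptor kinase, had 35.0 and 65.0 counts (adjusted p = 0.0359, exact binomial test), while its TPM was 2.24 and 2.15. CUL5 had 949 and 1038 counts (adjusted p = 0.0401, exact binomial test), while its TPM, given above, was lower in replicate 2. Lists are described by their counts alone, and nothing was tested between them.

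**Figure D5:**
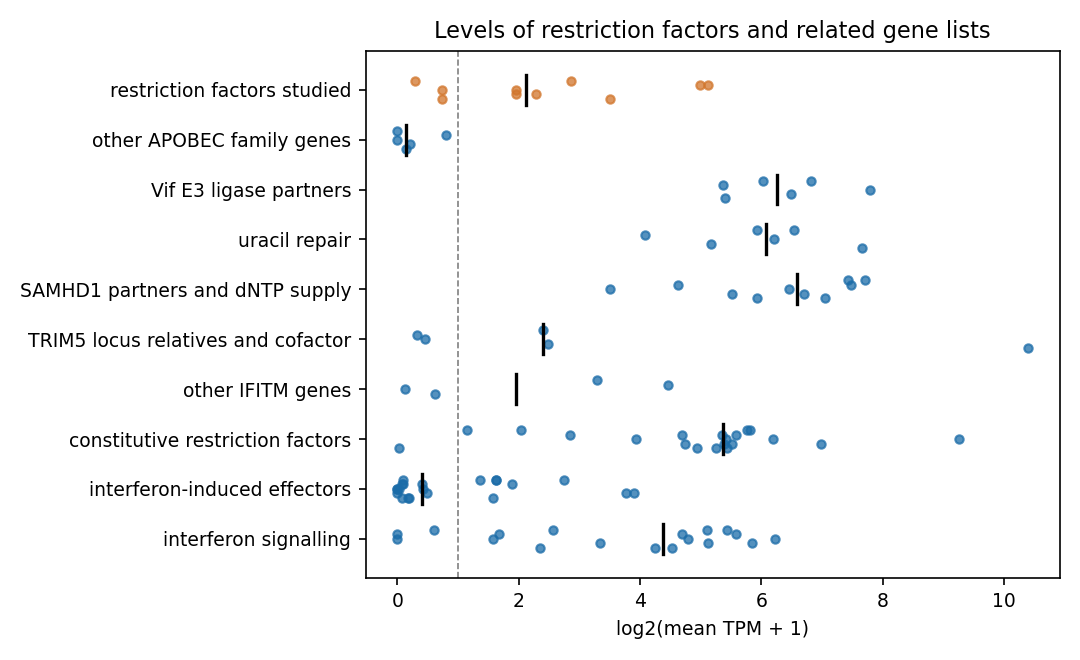
Log2(mean TPM + 1) of the 10 restriction factors (orange) and of the genes of each related list (blue). Each point is a gene, black lines are medians and the dashed line marks a mean TPM of 1. The constitutive restriction factors have a median of 40.3 TPM, the interferon-induced effectors 0.320 TPM, and the 10 factors lie between them at 3.38 TPM. The lists were chosen with earlier results of these data known.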

How the data were processed

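Poly(A)+ RNA of 2 replicates of HEK293T cells was sequenced with 50-base reads. Per the submitters' processing notes, the authors used Trimmomatic 0.36, STAR 2.6.1c and RSEM 1.3.1 with hg19 (GRCh37.p13). The study's methods name featureCounts for counting, but the deposited columns are those of RSEM. The estimated counts deposited by the authors divide reads that fit several genes among them. TPM and FPKM values, made by the authors, are corrected for effective length. The authors also deposited scores of uncertainty, which are the posterior SD of each count and 95% bounds of each TPM. Whether reads were counted by strand was not stated in the sources at hand, so reads within an overlap of genes on opposite strands may have been counted for either. The authors also deposited a table of the pooled reads.

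Symbols and GRCh37 coordinates came from GENCODE 44 mapped to GRCh37 (55501 of 57736 identifiers, 96.1%). For shared windows, 182826 of 196317 listed transcripts (93.1%) were matched, 45 of 50 for the restriction factors. The exact binomial test used scipy 1.17.1 on counts rounded to whole numbers, with TMM library sizes from edgeR 4.0.16 in R 4.3.3. Log2 ratios of CPM and TPM used no pseudocount. The test was checked on simulated data. Both samples formed 1 group by their labels. All 10 genes, all genes of the role lists and the genes of the cluster could be named. The genes and lists were chosen with earlier results of these data known. Alternatives were other thresholds, units, normalizations and filters, and leaving out each replicate. The marker NEFL and promoters of APOBEC3B, APOBEC3C, APOBEC3D, APOBEC3F and APOBEC3G were not analysed here. Of 6 fibroblast markers 1 was detected, COL1A1, at 10.3 and 7.51 TPM, and of 6 epithelial and neuronal markers 5 were. Some single genes of the lists are not reported here.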

Additional observations from a re-analysis of the deposited data

How the results depend on the processing

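Of the 10 restriction factors, 4 rather than 7 were detected when 5 TPM was required. With replicate 2 alone BST2 was added, so leaving out a replicate gave 7 to 8 genes. With the posterior mean TPM of RSEM, 10 passed a TPM of 1. Other thresholds also moved 3 lists. The other APOBEC family genes went from 0 to 2 at a TPM of at least 0.1. At a TPM of at least 5 the TRIM5 relatives went to 1 and the interferon-induced effectors to 2. The summed TPM of the APOBEC3 genes was 45.9 to 49.1 when a replicate was left out. As TMM-scaled CPM per kb of effective length, another unit with no fixed total, it was 33.6. Of neighbouring pairs, 2 rather than 6 were apart by the bounds of the TPM interval. In the binomial test the number of genes called was 448 to 752 under the other settings that kept genes with fractional counts. Among genes with whole counts only it was 71 of 8675. No restriction factor was tested there, since 8 had counts that were not whole and APOBEC3H and BST2 were below the minimum count. The restriction factors called were 0 under each setting that tested any. Of the 10 levels, 8 moved by more than the replicate SD with the posterior mean TPM, among them APOBEC3G to 1.80 and TRIM5 to 4.84. No paired analysis was possible because both replicates belong to 1 group. At this depth a count of 0 does not show that a gene is silent.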
